A study of Mus musculus with 6 samples.

Results

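The nuclear genes for the respiratory chain and ATP synthase were examined in a mouse melanoma line, B16-F1, which comes from the strain C57BL/6J. There were 3 derived lines, each with a stably integrated lentivirus for a short hairpin RNA (shRNA): a macroH2A1 shRNA line, a macroH2A2 shRNA line and a control line with a hairpin to GFP. All 3 lines therefore carried a lentiviral hairpin. MacroH2A1 and macroH2A2 are variants of histone H2A with a large additional macro domain. Each line was represented by 2 arrays, given as independent biological replicates, and the labels do not say whether a line was a clone or a pool, or how many hairpins were used per target. Members were all genes with a symbol of the series Nduf (A, B, C, S or V with a number), Sdha to Sdhd, Uqcr, Cox4 to Cox8 or Atp5, without the c-ring genes Atp5g1, Atp5g2 and Atp5g3, on probe sets annotated to 1 gene. This gave 78 of 18193 named genes: 35 for complex I, 4 for complex II, 8 for complex III, 17 for complex IV and 14 for complex V, the ATP synthase. Where a gene had several probe sets, the one with the highest mean signal stood for it. Of the 78, 72 had a mean signal of at least 10.4, the minimum for the test: 33, 4, 8, 13 and 14 for complexes I to V.

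Complexes I and II pass electrons from NADH and succinate to ubiquinone, complex III passes them on to cytochrome c, and complex IV, cytochrome c oxidase, passes them to oxygen. Complexes I, III and IV pump protons across the inner mitochondrial membrane, and ATP synthase uses the gradient to make ATP. Except for complex II, each complex joins subunits encoded in the nucleus to subunits encoded in mitochondrial DNA. The nuclear genes are known to be under the control of broadly acting factors, among them NRF1, GABPA and YY1, with the coactivator PGC-1alpha (Ppargc1a) above them.

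The arrays fitted their labels where this could be checked. Macroh2a1 had a signal of 444.2 and 319.1 on the macroH2A1 shRNA arrays, 1271 and 1170.5 on the macroH2A2 shRNA arrays and 1213 and 1262 on the control arrays. Its log2 fold change in macroH2A1 shRNA against control cells was -1.67 ± 0.17 (SE), with an adjusted p of 0.123 in the test used below and 0.0012 with the replicate set as a block, so that the test without the block did not call the targeted gene. Macroh2a2 had a mean signal of 6.55, below the minimum for testing, and its knockdown could not be checked. Its signal was 11.9 and 8.3 on the macroH2A2 shRNA arrays, 3.5 and 2 on the macroH2A1 shRNA arrays and 6.1 and 7.5 on the control arrays. At this level, no lower signal was seen in the macroH2A2 shRNA line. The 7 melanocyte markers had signals from 1288 to 9998, while no leukocyte, fibroblast, keratinocyte or endothelial marker exceeded 82.9 on any array. The median signal of an array lay between 15.1 and 24.6 and all arrays had a 2% trimmed mean of 150.0.

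The promoters are described first, since the choice of members by name did not use them. Of the 78 members, 63 had a window from 250 bases before to 50 bases after a transcription start in the RefSeq sequences of build GRCm38.p6. Both strands were searched for 1 sequence each of NRF1 (GCGCA, any base, then GCGC), GABPA (CCGGAAGT) and YY1 (AAGATGGCG), none of which contains another. The NRF1 sequence was present at 13 of the 63 members (20.6%), against 5.19% of all genes with a window in the same RefSeq table. The GABPA sequence was present at 5 members (7.94%), against 4.31% of all genes, and the YY1 sequence at 6 members (9.52%), against 1.64% of all genes. At least 1 of the 3 was present at 23 members (36.5%), against 10.3% of all genes, so that most members held none. By complex, at least 1 was present at 10 of 31 matched members of complex I, 2 of 3 of complex II, 3 of 5 of complex III, 2 of 12 of complex IV and 6 of 12 of complex V. The 12 of complex IV include Cox6b2, Cox7a1, Cox7b2 and Cox8b, which held no match and had signals below the minimum for the test. All genes of the RefSeq table were used, without matching them to the members in signal or in the base content of the window. Higher shares among the members are therefore not shown to be particular to this family. A match describes the letters in the window and says nothing of binding in these cells. A promoter per complex is printed to show where these letters stand in a whole window, with capitals for the matched sequence. The examples for complexes I, II, III and V all hold a match, so they are not typical of the members. The complex IV example, Cox7a2l, was chosen because its gene had the highest log2 fold change of all members in macroH2A1 shRNA against control cells, and its window held none of the 3. The windows are Ndufs7 at chr10:80249199-80249498 on the plus strand, Sdhd at chr9:50603800-50604099, Uqcr11 at chr10:80406772-80407071, Cox7a2l at chr17:83514284-83514583 and Atp5j2 at chr5:145191492-145191791, the last 4 on the minus strand, and each is written 5′ to 3′ on the strand of its gene.
Ndufs7: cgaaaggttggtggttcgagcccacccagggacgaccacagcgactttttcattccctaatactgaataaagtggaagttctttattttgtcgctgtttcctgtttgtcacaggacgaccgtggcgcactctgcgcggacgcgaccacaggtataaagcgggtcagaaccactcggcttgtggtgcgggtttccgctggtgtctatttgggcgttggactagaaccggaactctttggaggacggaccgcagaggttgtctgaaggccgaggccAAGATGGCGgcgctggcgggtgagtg
Sdhd: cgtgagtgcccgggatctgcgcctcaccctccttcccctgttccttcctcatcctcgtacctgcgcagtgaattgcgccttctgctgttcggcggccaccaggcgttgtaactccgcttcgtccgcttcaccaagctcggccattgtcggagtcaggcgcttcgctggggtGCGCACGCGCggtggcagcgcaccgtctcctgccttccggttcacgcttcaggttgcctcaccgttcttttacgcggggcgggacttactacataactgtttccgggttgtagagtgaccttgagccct
Uqcr11: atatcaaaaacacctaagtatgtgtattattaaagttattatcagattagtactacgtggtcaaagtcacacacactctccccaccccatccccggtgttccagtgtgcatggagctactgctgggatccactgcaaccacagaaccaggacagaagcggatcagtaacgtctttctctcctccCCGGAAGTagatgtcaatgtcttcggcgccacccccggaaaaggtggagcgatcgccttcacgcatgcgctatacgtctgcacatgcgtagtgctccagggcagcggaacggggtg
Cox7a2l: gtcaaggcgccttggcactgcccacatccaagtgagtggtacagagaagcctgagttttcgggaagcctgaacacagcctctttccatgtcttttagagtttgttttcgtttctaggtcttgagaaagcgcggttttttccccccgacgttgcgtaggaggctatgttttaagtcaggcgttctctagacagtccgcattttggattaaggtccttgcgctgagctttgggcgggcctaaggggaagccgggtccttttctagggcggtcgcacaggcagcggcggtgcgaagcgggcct
Atp5j2: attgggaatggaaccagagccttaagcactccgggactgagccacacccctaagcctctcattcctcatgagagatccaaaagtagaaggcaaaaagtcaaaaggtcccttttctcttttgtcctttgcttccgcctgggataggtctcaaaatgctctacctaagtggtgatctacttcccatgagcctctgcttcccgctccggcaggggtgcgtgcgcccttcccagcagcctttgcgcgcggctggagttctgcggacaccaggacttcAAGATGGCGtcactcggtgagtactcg
In Ndufs7 and Atp5j2 the YY1 sequence began 24 and 23 bases after the start. In Sdhd the NRF1 sequence and in Uqcr11 the GABPA sequence lay before the start, at -79 and -66.

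In macroH2A1 shRNA cells, most respiratory chain and ATP synthase members had slightly higher signals than in control cells, and no single member passed the test. The log2 fold change was above 0 for 67 of the 72 tested members, against 44.4% of all 27025 tested probe sets. Its median over the members was 0.12, which corresponds to 8.84%, against -0.03 over all tested probe sets. Adjusted p was under 0.05 (limma, Benjamini-Hochberg) for 0 members and for 0 of all probe sets (0%), and the smallest adjusted p of a member was 0.880. With the replicate set as a block, 0 members were called, with a smallest adjusted p of 0.181, among 52 called probe sets (0.192%). At an unadjusted p under 0.05, 10 members were higher and 0 lower, against 2.11% higher and 2.29% lower over all probe sets, and with the block 16 were higher and 0 lower, against 3.91% and 4.93%. Both macroH2A1 shRNA arrays lay above both control arrays for 40 of the 72 members and below both for 0, against 13.0% and 14.9% of all probe sets. In these cultures, a higher signal from more cells of a kind and from more RNA per cell cannot be told apart.

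The macroH2A2 shRNA line showed the same tendency against the same 2 control arrays, so the comparisons with control share their reference and are not independent. The log2 fold change was above 0 for 66 of the 72 members, against 44.3% of all probe sets, with a median of 0.13 over the members and -0.03 over all probe sets. Adjusted p was under 0.05 for 0 members and for 0 of all probe sets (0%), also for 0 members with the block, which called 39 probe sets (0.144%). At an unadjusted p under 0.05, 0 members were higher and 1 lower, against 1.45% and 2.52% of all probe sets. With the block, 4 members were higher and 2 lower, against 3.05% and 5.93%. Both macroH2A2 shRNA arrays lay above both control arrays for 35 members and below both for 3, against 13.0% and 16.2% of all probe sets.

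Between the macroH2A2 and macroH2A1 lines the members were split: 32 had a log2 fold change above 0 and 40 below 0, with a median of -0.02, where 48.9% of all probe sets were above 0. No member was called, with 0% of all probe sets called and, with the block, 0.00370%. The macroH2A2 arrays lay above both macroH2A1 arrays for 5 members and below both for 16, against 13.3% and 14.6% of all probe sets. At an unadjusted p under 0.05, 3 members were lower and 0 higher in macroH2A2 shRNA cells, against 1.48% and 1.25%, and with the block 5 were lower and 1 higher, against 3.42% and 2.92%. The 3 without the block were Cox6a2, Cox7a2l and Atp5mpl, each described below.

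Each member's deviation from its own mean over the 6 arrays was then taken on every array. The median deviation over the 72 members was 0.0045 and 0.12 on macroH2A1 shRNA arrays 1 and 2, 0.02 and 0.05 on macroH2A2 shRNA arrays 1 and 2, and -0.14 and -0.06 on control arrays 1 and 2. Both control arrays were thus the lowest of the 6, and the first macroH2A1 shRNA array was nearer to the second control array than to its own replicate. The pooled SD of this median between replicates was 0.058. The median signal of all probe sets was 20.6 and 15.4 on the macroH2A1 shRNA arrays, 19.5 and 16.2 on the macroH2A2 shRNA arrays and 24.6 and 15.1 on the control arrays, so that the first control array had the highest median signal and the lowest values of the members. Without it the median log2 fold change of the members against control was 0.11 for macroH2A1 shRNA and 0.084 for macroH2A2 shRNA, beside 0.12 and 0.13 with all arrays. The first median was 0.19 without control array 2, 0.21 without macroH2A1 shRNA array 1 and 0.079 without macroH2A1 shRNA array 2. Replicate 2 lay above replicate 1 in all 3 lines, by a median of 0.11 in macroH2A1 shRNA, 0.03 in macroH2A2 shRNA and 0.11 in control cells. In the macroH2A1 shRNA and control lines, the replicates thus differed by about as much as the lines did. Within replicate set 1 the median log2 fold change of the members against control was 0.11 for macroH2A1 shRNA and 0.15 for macroH2A2 shRNA, and within set 2 it was 0.16 and 0.09.

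**Figure D1:**
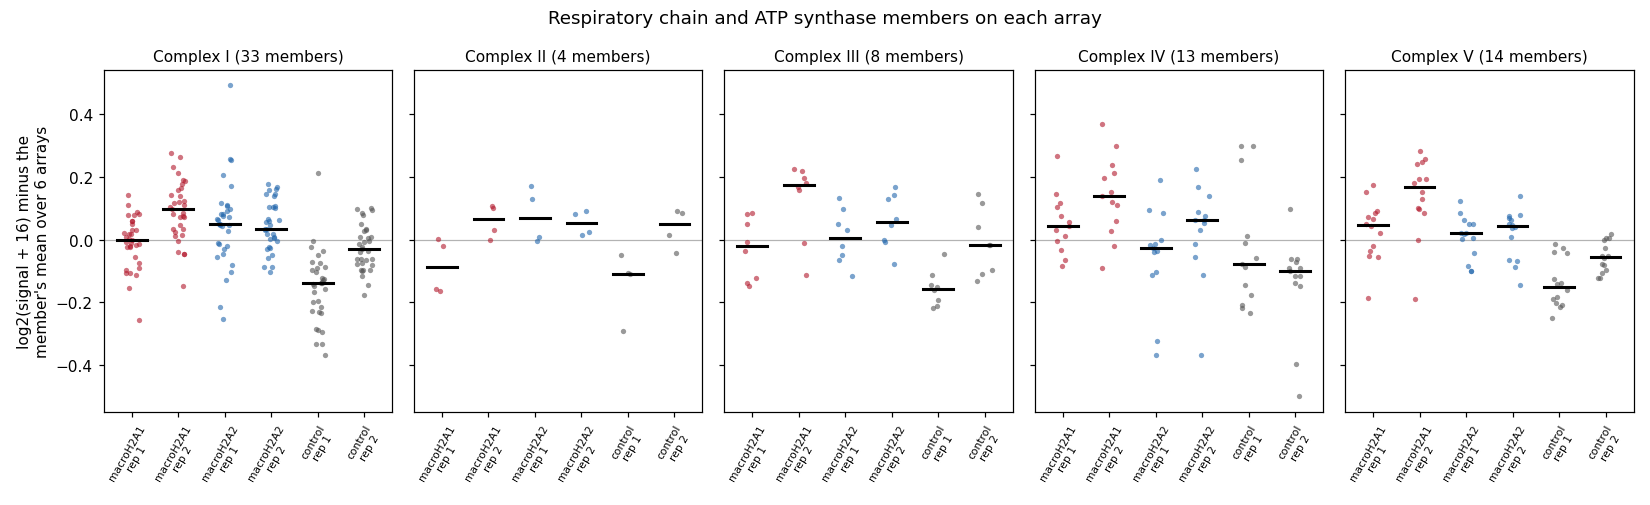
Deviation of each tested member from its own mean over the 6 arrays, in log2(signal + 16), by complex. Each point is a member on 1 array and each bar the median of the complex on that array; for complexes I, IV and V both control arrays have the lowest medians, and replicate 2 is above replicate 1 in the macroH2A1 shRNA and control lines of complexes I and V.

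Values above 0 were also common among other strongly hybridising probe sets. All tested probe sets were divided by mean signal into 10 groups of about equal size, and 66 of the 72 tested members lay in the brightest group, at 918.9 signal units or more. All 2703 probe sets of this group had a median log2 fold change of 0.08 in macroH2A1 shRNA and 0.07 in macroH2A2 shRNA against control cells, with 69.0% and 69.7% above 0. The 66 members among them had medians of 0.14 and 0.13, with 61 above 0 in each comparison. Both macroH2A1 shRNA arrays lay above both control arrays for 38 of the 66 and for 31.7% of the group, and both macroH2A2 shRNA arrays for 33 of the 66 and for 28.1% of the group. In the dimmest group, without any member, the medians over all probe sets were -0.07 and -0.07. The part of the signal scale in the members' values was not tested further than by the alternatives that follow.

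**Figure D2:**
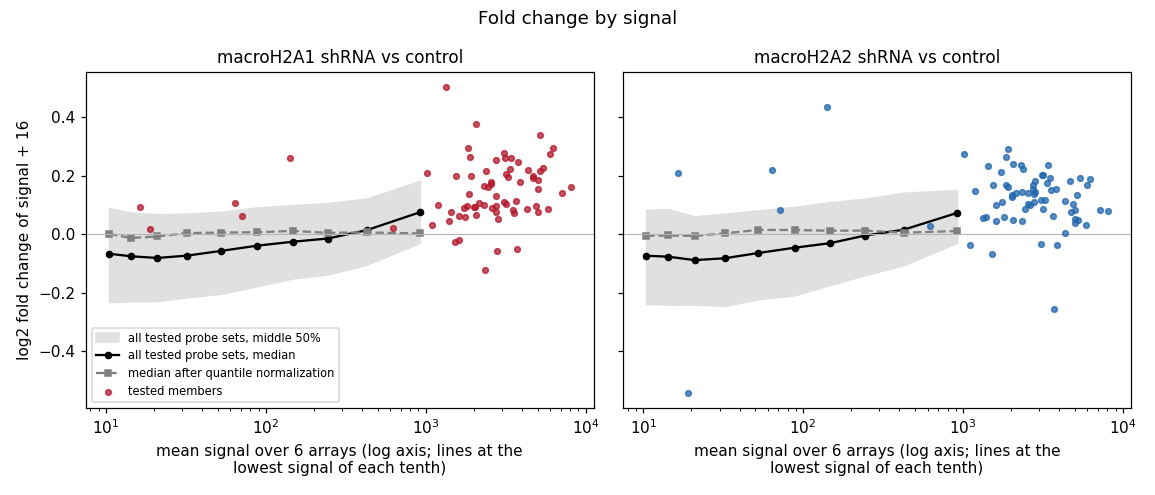
Log2 fold change against mean signal (log axis) in macroH2A1 shRNA and macroH2A2 shRNA against control cells. Black points and line give the median of all tested probe sets in each of the 10 signal groups, the band their middle 50%, grey squares the median after quantile normalization, and coloured points the 72 tested members; the black line ends at 0.08 and 0.07 in the brightest group, and most members lie above it.

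Quantile normalization gives all arrays the same distribution of signals and removed the dependence on signal over all probe sets: the medians of the brightest group became 0.0030 and 0.01. The members' median became 0.04 in macroH2A1 shRNA and 0.07 in macroH2A2 shRNA against control cells. After it, 55 of 72 members were above 0 in macroH2A1 shRNA cells, against 50.7% of all probe sets, and 53 in macroH2A2 shRNA cells, against 51.5%. Both arrays of the macroH2A1 shRNA line lay above both control arrays for 20 members and below both for 4, against 15.1% and 13.9% of all probe sets. For the macroH2A2 shRNA line these counts were 24 and 6, against 15.6% and 14.6%. Between the macroH2A2 and macroH2A1 lines 39 members were above 0, against 50.6%, and the arrays did not overlap for 11 higher and 12 lower members, against 13.8% and 13.9%. No member was called after quantile normalization in any of the 3 comparisons, with 0% of all probe sets called, nor with the block as well, where 0.0814%, 0.0592% and 0.00370% of all probe sets were called. Within replicate sets 1 and 2 the quantile normalized median was 0.02 and 0.07 in macroH2A1 shRNA, and 0.07 and 0.05 in macroH2A2 shRNA cells, and on the arrays the median deviation was -0.01 and 0.06 in macroH2A1 shRNA, 0.01 and 0.04 in macroH2A2 shRNA, and -0.06 and -0.0029 in control cells. Control array 1 remained the lowest, and control array 2 lay between the macroH2A1 shRNA arrays.

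By complex, the median log2 fold change of macroH2A1 shRNA against control cells was 0.11 for complex I, 0.05 for complex II, 0.13 for complex III, 0.14 for complex IV and 0.18 for complex V. The number of members above 0 was 30 of 33, 3 of 4, 7 of 8, 13 of 13 and 14 of 14. The 13 of complex IV include Cox4i2, Cox6a2, Cox7c and Cox8c, with mean signals of 16.4, 19.0, 71.35 and 64.3. Their values were below their standard errors: 0.09 ± 0.31, 0.02 ± 0.23, 0.06 ± 0.26 and 0.11 ± 0.20. After quantile normalization 26, 2, 6, 11 and 10 members were above 0. Both macroH2A1 shRNA arrays then lay above both control arrays for 10, 1, 2, 1 and 6 members, beside 16, 1, 4, 9 and 10 before. The quantile normalized medians were 0.04, -0.01, 0.03, 0.06 and 0.07. The order of the complexes therefore kept complex II lowest and complex V highest, but the pooled SD between replicates of a complex's median deviation, from 0.054 for complex IV to 0.100 for complex III, was as large as the gaps between neighbouring complexes. In macroH2A2 shRNA against control cells the medians were 0.14, 0.10, 0.13, 0.08 and 0.11 for complexes I to V, with 30 of 33, 4 of 4, 8 of 8, 12 of 13 and 12 of 14 members above 0. The complex IV median of this comparison was the value of Cox7c, a ubiquitous subunit whose brightest probe set with 1 symbol had signals of only 49.7 to 90.3 on the 6 arrays. Quantile normalization brought the medians of this comparison to 0.09, 0.04, 0.05, 0.04 and 0.03, with 26, 3, 5, 8 and 11 members above 0. Between the macroH2A2 and macroH2A1 lines the medians were 0.0085, 0.07, -0.06, -0.06 and -0.06, and that of complex IV became 0.02 after quantile normalization.

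**Figure D3:**
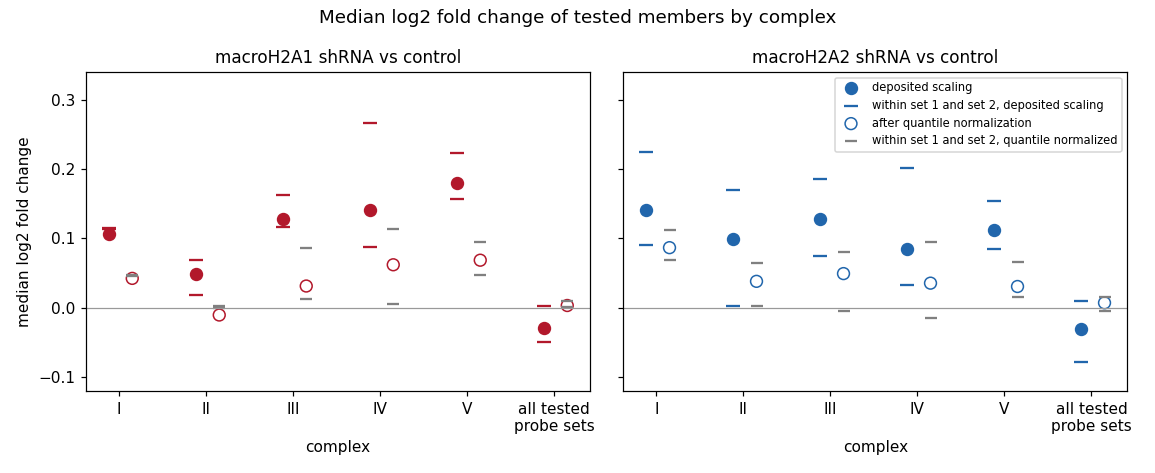
Median log2 fold change of the tested members of complexes I to V and of all tested probe sets, in macroH2A1 shRNA and macroH2A2 shRNA against control cells. Filled points use the deposited scaling, open points quantile normalization, and dashes the values within replicate sets 1 and 2; every open point of a complex lies below its filled point.

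Among complex I members, the largest log2 fold changes in macroH2A1 shRNA cells were those of Ndufb7 and Ndufa4. Ndufb7, an accessory subunit on the intermembrane side of the membrane arm, had a signal of 2193 and 2389 on the macroH2A1 shRNA arrays, 2123 and 2040.1 on the macroH2A2 shRNA arrays, and 1610.5 and 1926 on the control arrays. All 4 macroH2A1 and macroH2A2 shRNA arrays lay above both control arrays. The log2 fold change was 0.38 ± 0.13 (SE) for macroH2A1 shRNA and 0.24 ± 0.13 for macroH2A2 shRNA against control, with adjusted p of 0.987 and 1 (limma), and its second probe set gave 0.28 and 0.23. Ndufa4, long counted in complex I by its name and now known as a component of complex IV, had 5444 and 6200.2 on the macroH2A1 shRNA arrays, 4770 and 5337 on the macroH2A2 shRNA arrays, and 4417 and 4778 on the control arrays. The macroH2A1 shRNA arrays were the 2 highest, and the macroH2A2 shRNA arrays overlapped the control arrays. The log2 fold change of Ndufa4 in macroH2A1 shRNA cells was 0.34 ± 0.11 and became 0.15 after quantile normalization.

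Ndufc2, an accessory subunit of the membrane arm, had 3594 and 3667 on the macroH2A1 shRNA arrays, 3499 and 3647 on the macroH2A2 shRNA arrays, and 2888 and 3178 on the control arrays. The macroH2A1 and macroH2A2 shRNA arrays all lay above the control arrays, with log2 fold changes of 0.26 ± 0.10 and 0.24 ± 0.10 (SE). Ndufs7, the core subunit with the last iron-sulfur cluster before ubiquinone, had 1004 and 1084 on the macroH2A1 shRNA arrays, 1069 and 1119 on the macroH2A2 shRNA arrays, and 825.4 and 982.6 on the control arrays. Here too the control arrays were lowest, with log2 fold changes of 0.21 ± 0.14 and 0.28 ± 0.14. Its promoter is the first of those printed above.

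A further pair of accessory subunits had their largest values in macroH2A2 shRNA cells. Ndufb1 had 123.1 and 163.4 on the macroH2A1 shRNA arrays, 201.4 and 129.8 on the macroH2A2 shRNA arrays, and 110.8 and 121 on the control arrays. Its log2 fold change of 0.43 ± 0.24 (SE) in macroH2A2 shRNA cells rested on replicate 1, being 0.78 within set 1 and 0.09 within set 2. Ndufb2 had 1891 and 2016 on the macroH2A1 shRNA arrays, 2063 and 2097.5 on the macroH2A2 shRNA arrays, and 1510.5 and 1909.5 on the control arrays. The macroH2A2 shRNA arrays lay above the control arrays (0.29 ± 0.14), while the first macroH2A1 shRNA array did not (0.20 ± 0.14). A second strong probe set gave 0.25 in macroH2A1 shRNA and 0.29 in macroH2A2 shRNA cells, and another, with a mean signal of 23.9, gave -0.65 ± 0.48 and -0.57 ± 0.48.

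Few complex I members had lower signals. Ndufv3, an accessory subunit of the NADH-binding part, had 3880 and 3739 on the macroH2A1 shRNA arrays, 3081 and 3550.2 on the macroH2A2 shRNA arrays, and 4259 and 3654 on the control arrays. The macroH2A2 shRNA arrays were the 2 lowest of the 6, with a log2 fold change of -0.25 ± 0.12 (SE), which was -0.47 within set 1 and -0.04 within set 2. It was -0.05 ± 0.12 in macroH2A1 shRNA cells, whose arrays lay between the control arrays. Ndufa6, an accessory subunit that binds the mitochondrial acyl carrier protein, had -0.02 ± 0.12 in macroH2A1 shRNA and -0.07 ± 0.12 in macroH2A2 shRNA cells, with overlapping arrays. Ndufb6, an accessory subunit of the membrane arm, had 2745 and 2516 on the macroH2A1 shRNA arrays, 3336.5 and 2740.2 on the macroH2A2 shRNA arrays, and 2499 and 2995 on the control arrays. The arrays of the 3 lines overlapped, and its log2 fold change was -0.06 ± 0.14 in macroH2A1 shRNA cells and 0.14 ± 0.14 in macroH2A2 shRNA cells against control.

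Complex II is the succinate dehydrogenase that also works in the citric acid cycle, and its median was the one closest to 0 in macroH2A1 shRNA cells. Sdhb, the iron-sulfur subunit, had 3565 and 3558 on the macroH2A1 shRNA arrays, 3897 and 3627 on the macroH2A2 shRNA arrays, and 3304 and 3462 on the control arrays. All macroH2A1 and macroH2A2 shRNA arrays lay above both control arrays. The log2 fold changes were 0.07 ± 0.10 and 0.15 ± 0.10 (SE), and the first became -0.04 after quantile normalization. Sdhd, a membrane anchor, had 1278 and 1543.5 on the macroH2A1 shRNA arrays, 1615.5 and 1526 on the macroH2A2 shRNA arrays, and 1168 and 1520 on the control arrays. The macroH2A2 shRNA arrays were above both control arrays, by 0.0055 only within set 2, for a log2 fold change of 0.23 ± 0.16, and the macroH2A1 shRNA arrays overlapped them (0.08 ± 0.16). The other Sdhd probe set, with a mean signal of 425.4, had the opposite sign. It gave -0.40 ± 0.32 in macroH2A1 shRNA and -0.19 ± 0.32 in macroH2A2 shRNA cells. Sdha, the flavoprotein, and Sdhc, the other anchor, had log2 fold changes of -0.02 ± 0.14 and 0.02 ± 0.13 in macroH2A1 shRNA, and 0.05 ± 0.14 and 0.03 ± 0.13 in macroH2A2 shRNA cells.

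In complex III, Uqcrfs1, the Rieske iron-sulfur protein, had 1951 and 2114 on the macroH2A1 shRNA arrays, 1880 and 1841 on the macroH2A2 shRNA arrays, and 1590.3 and 1719.5 on the control arrays. The 3 lines did not overlap, with macroH2A1 shRNA highest and control lowest. The log2 fold change was 0.29 ± 0.11 (SE) in macroH2A1 shRNA, with 0.29 and 0.30 within sets 1 and 2, and 0.17 ± 0.11 in macroH2A2 shRNA cells, and the first was 0.25 after quantile normalization. Uqcr11, a small accessory subunit, had 2010 and 2115 on the macroH2A1 shRNA arrays, 1962 and 1884 on the macroH2A2 shRNA arrays, and 1703.5 and 1726 on the control arrays. It showed the same order without overlap, at 0.26 ± 0.11 and 0.16 ± 0.11. The core protein gene Uqcrc2 had 2095.5 and 2145 on the macroH2A1 shRNA arrays, 2548 and 2562 on the macroH2A2 shRNA arrays, and 2076 and 2565 on the control arrays. The control arrays spanned all others, so that its log2 fold changes against control were -0.12 ± 0.13 and 0.15 ± 0.13, while macroH2A2 shRNA lay above macroH2A1 shRNA on both arrays (0.27 ± 0.13, unadjusted p = 0.0710). The second Uqcrc2 probe set, with a mean signal of 1673, gave 0.02 ± 0.12 and 0.13 ± 0.12 against control. Between the macroH2A2 and macroH2A1 lines it gave 0.12 ± 0.12. The other members, Uqcr10, Uqcrb, Uqcrc1, Uqcrh and Uqcrq, had log2 fold changes from 0.07 (Uqcrc1) to 0.20 (Uqcrh) in macroH2A1 shRNA cells.

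Cox7a2l had the largest log2 fold change of all members in macroH2A1 shRNA cells. It resembles a complex IV subunit and has been described in mouse as a factor that joins complex III and complex IV into supercomplexes. This role need not hold in every mouse strain, and the form of the gene in the strain of this line was not examined. A higher signal therefore does not show more of a working factor. Whether the product of Cox7a2l joins these complexes in these cells was not measured. Its signal was 1592 and 1706 on the macroH2A1 shRNA arrays, 1052 and 1380.5 on the macroH2A2 shRNA arrays, and 1120.3 and 1198 on the control arrays. The macroH2A1 shRNA arrays were the 2 highest and the macroH2A2 shRNA arrays spanned the control arrays. The log2 fold change in macroH2A1 shRNA against control cells was 0.50 ± 0.15 (SE), 1.42-fold, with 0.50 within both replicate sets and an unadjusted p of 0.0111. The adjusted p was 0.880 (limma) and 0.181 with the replicate block, and it lay between 0.181 and 1 over 16 alternatives. It was 0.06 ± 0.15 in macroH2A2 shRNA against control, and -0.45 ± 0.15 in macroH2A2 against macroH2A1 shRNA cells with an adjusted p of 1. Quantile normalization left 0.46 in macroH2A1 shRNA cells, so that the value of this gene depended little on the scaling. Its other 2 probe sets gave 0.44 ± 0.27 and 0.41 ± 0.19 in macroH2A1 shRNA, and -0.09 ± 0.27 and 0.04 ± 0.19 in macroH2A2 shRNA cells.

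The ubiquitous complex IV subunits had smaller values. Cox5b, which binds a zinc ion, had 6143 and 6917.5 on the macroH2A1 shRNA arrays, 5890.0 and 6229 on the macroH2A2 shRNA arrays, and 5163 and 5610.3 on the control arrays. All macroH2A1 and macroH2A2 shRNA arrays lay above the control arrays in the deposited scaling. The log2 fold changes were 0.28 ± 0.11 and 0.17 ± 0.11 (SE) and became 0.06 and 0.07 after quantile normalization. Cox4i1, the ubiquitous form of subunit 4, had 5588 and 5774 on the macroH2A1 shRNA arrays, 5108 and 5007 on the macroH2A2 shRNA arrays, and 4990.2 and 4796 on the control arrays. The lines did not overlap in the deposited scaling. The log2 fold change in macroH2A1 shRNA cells was 0.21 ± 0.09 and became 0.03 after quantile normalization. Of the 13 tested complex IV members, 9 had both macroH2A1 shRNA arrays above both control arrays, and 1 after quantile normalization. Cox6a1, Cox6b1, Cox7a2 and Cox8a, the ubiquitous forms of their subunits, had 0.29 ± 0.14, 0.23 ± 0.11, 0.14 ± 0.10 and 0.09 ± 0.11 in macroH2A1 shRNA, and 0.19 ± 0.14, 0.19 ± 0.11, 0.08 ± 0.10 and 0.10 ± 0.11 in macroH2A2 shRNA cells. Cox5b was also measured by 3 further strong probe sets, which gave 0.17 to 0.26 in macroH2A1 shRNA cells, and by 2 dim ones with mean signals of 35.5 and 17.5, which gave -0.12 ± 0.30 and -0.33 ± 0.23.

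The tissue forms of complex IV had little signal. Cox4i2, a form known from lung, had a mean signal of 16.4, and Cox6a2, the form of heart and skeletal muscle, one of 19.0. Cox7a1 and Cox8b, also muscle forms, had 3.20 and 2.87, and Cox6b2 and Cox7b2, known from testis, had 6.95 and 4.12, all below the minimum for the test. Cox8c, another testis form, had 64.3. Ndufa4l2, the paralogue of Ndufa4 induced by hypoxia, had 3.47. Cox6a2 had 22.1 and 24.6 on the macroH2A1 shRNA arrays, 10.7 and 10.7 on the macroH2A2 shRNA arrays, and 25 and 20.8 on the control arrays. Both macroH2A2 shRNA arrays were lowest, and the log2 fold change of -0.54 ± 0.23 (SE, unadjusted p = 0.0484) was the lowest of all members in that comparison, at a signal close to the minimum for the test. No member of this group was called in any comparison.

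**Figure D4:**
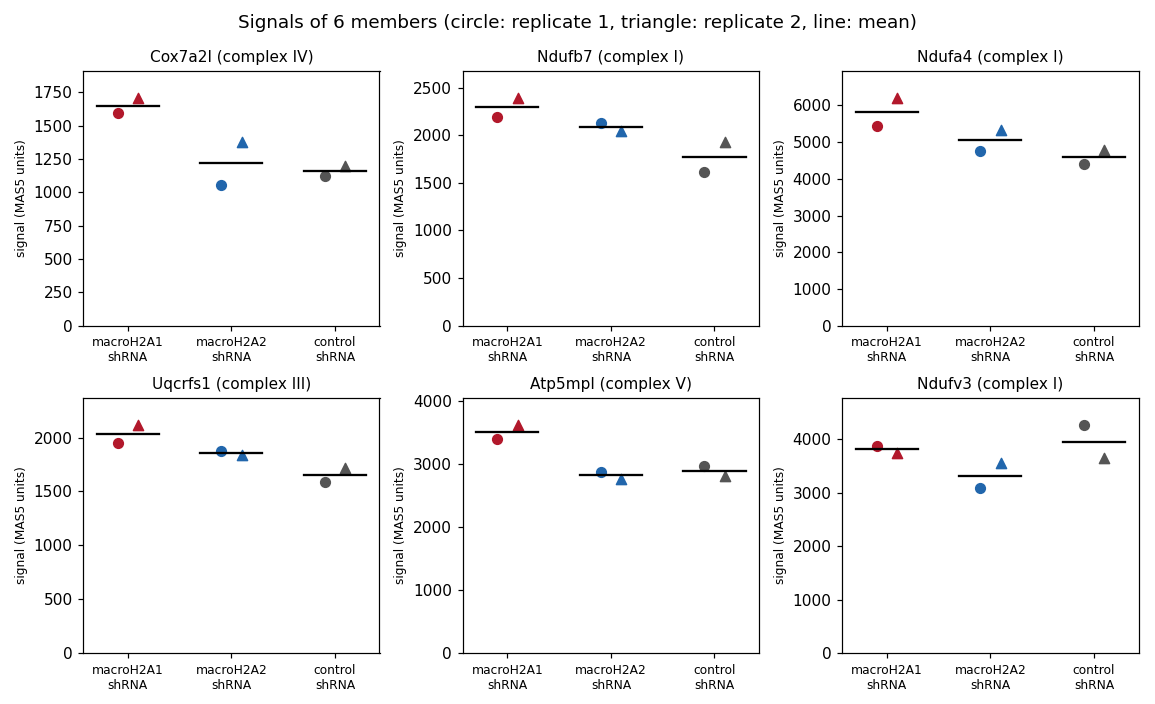
Signal of Cox7a2l, Ndufb7, Ndufa4, Uqcrfs1, Atp5mpl and Ndufv3 on each array, in MAS5 units on axes from 0, with macroH2A1 shRNA left, macroH2A2 shRNA in the middle and control right. Circles are replicate 1, triangles replicate 2 and lines the mean of 2 arrays; macroH2A1 shRNA is highest for Cox7a2l (1592 and 1706) and Atp5mpl (3403 and 3621), and macroH2A2 shRNA lowest for Ndufv3 (3081 and 3550.2).

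In complex V, all 14 members had a log2 fold change above 0 in macroH2A1 shRNA cells, from 0.08 to 0.28. After quantile normalization, 10 of the 14 were above 0. Atp5mpl, a small proteolipid of the membrane part, had 3403 and 3621 on the macroH2A1 shRNA arrays, 2886 and 2771 on the macroH2A2 shRNA arrays, and 2977 and 2813 on the control arrays. The macroH2A1 shRNA arrays stood above the other 4, which overlapped. Its log2 fold change was 0.28 ± 0.10 (SE) in macroH2A1 shRNA and -0.03 ± 0.10 in macroH2A2 shRNA against control, and -0.31 ± 0.10 in macroH2A2 against macroH2A1 shRNA cells (unadjusted p = 0.0177, adjusted p = 1, limma). Atp5l, subunit g of the membrane part, had 3310.1 and 3410.4 on the macroH2A1 shRNA arrays, 3165 and 3283.5 on the macroH2A2 shRNA arrays, and 2622 and 2992 on the control arrays. All macroH2A1 and macroH2A2 shRNA arrays lay above the control arrays, at 0.26 ± 0.11 and 0.20 ± 0.11.

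Atp5j2, subunit f, whose promoter with the YY1 sequence is printed above, had 4545 and 4832 on the macroH2A1 shRNA arrays, 4222 and 4487 on the macroH2A2 shRNA arrays, and 3985 and 4059 on the control arrays. Here too the macroH2A1 and macroH2A2 shRNA arrays were above the control arrays, at 0.22 ± 0.10 and 0.11 ± 0.10 (SE). Atp5j, coupling factor 6 of the stalk, had 4053 and 4408 on the macroH2A1 shRNA arrays, 3594 and 3678 on the macroH2A2 shRNA arrays, and 3739 and 3719 on the control arrays. The macroH2A1 shRNA arrays lay above and the macroH2A2 shRNA arrays below both control arrays, at 0.18 ± 0.10 and -0.04 ± 0.10. In the catalytic F1 part, Atp5a1 (alpha), Atp5b (beta), Atp5c1 (gamma), Atp5d (delta) and Atp5e (epsilon) had log2 fold changes of 0.13 ± 0.16, 0.16 ± 0.10, 0.20 ± 0.12, 0.25 ± 0.13 and 0.17 ± 0.12 in macroH2A1 shRNA cells. In macroH2A2 shRNA cells the same 5 had 0.16 ± 0.16, 0.05 ± 0.10, 0.18 ± 0.12, 0.11 ± 0.13 and 0.10 ± 0.12. Atp5k, subunit e of the membrane part, had 0.18 ± 0.10 in macroH2A1 shRNA cells, 0.18 within both replicate sets, and 0.14 ± 0.10 in macroH2A2 shRNA cells.

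**Figure D5:**
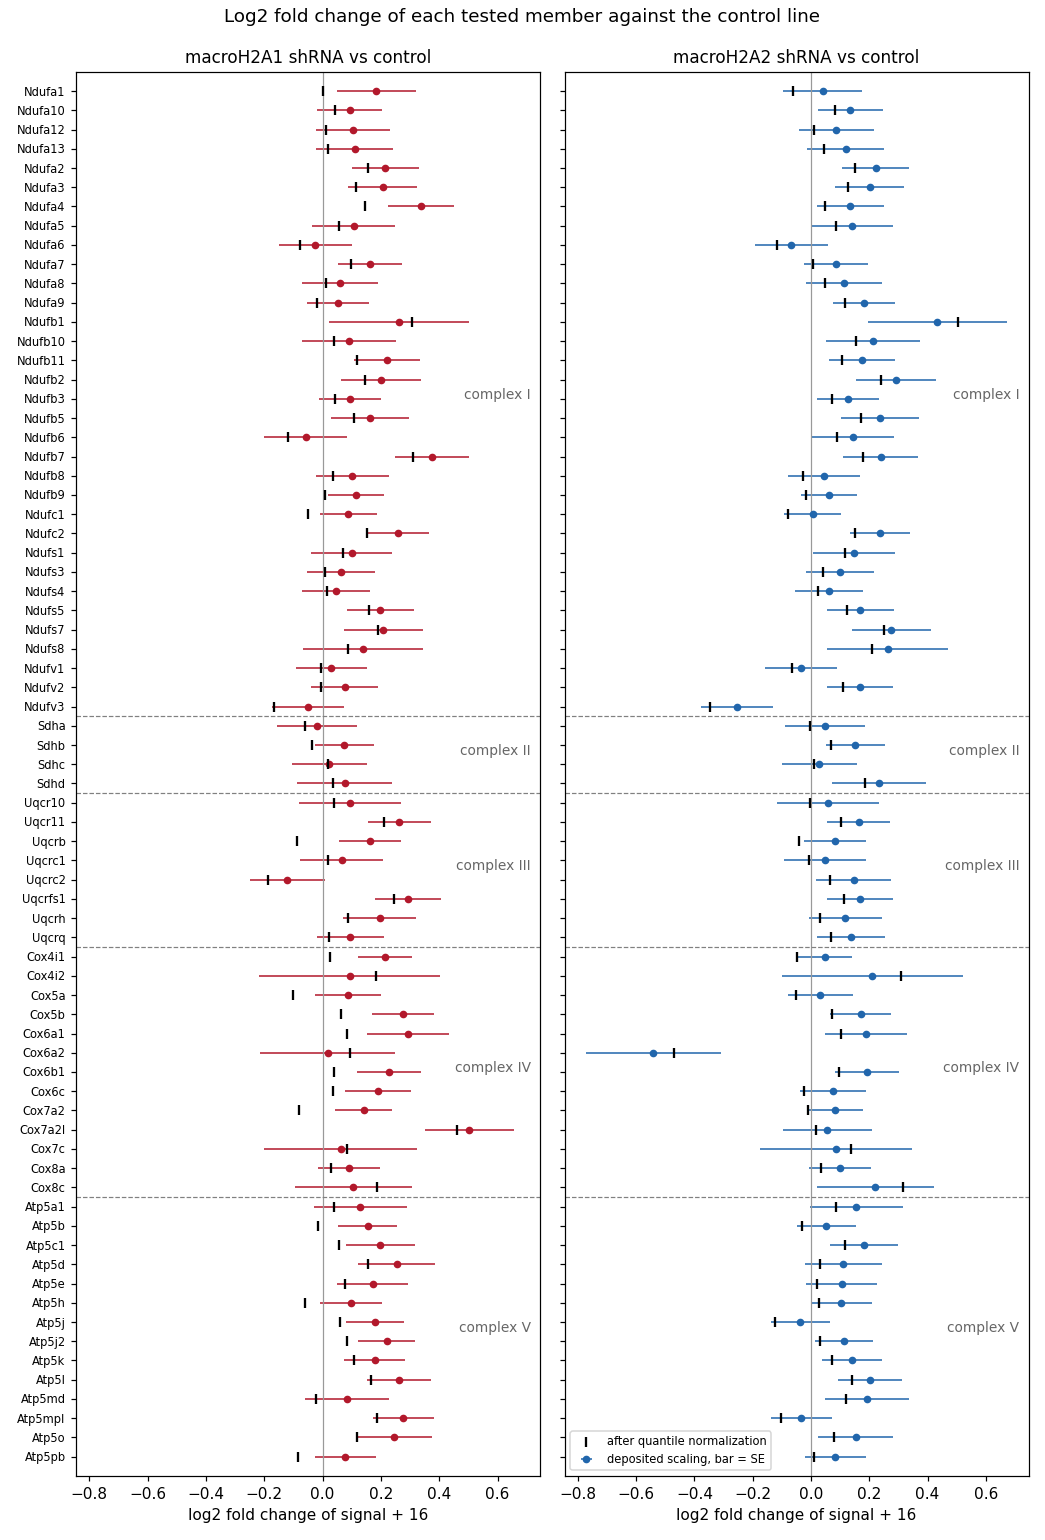
Log2 fold change of signal + 16 for each of the 72 tested members, ordered by complex, in macroH2A1 shRNA (left) and macroH2A2 shRNA cells (right) against control. Points use the deposited scaling with the standard error as a bar, and black ticks quantile normalization; 67 and 66 points lie above 0, Cox7a2l is the highest on the left, and Cox6a2 the lowest on the right.

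Genes measured by several probe sets mostly had the same direction. The 72 members had 75 further tested probe sets, of which 56 had the sign of the brightest one in macroH2A1 shRNA and 57 in macroH2A2 shRNA against control. Of the 57 with a mean signal of at least 200, 49 and 48 did. Ndufb4, a complex I member, was not tested because its only probe set with 1 symbol had a mean signal of 6.07. A pair of probe sets that list Ndufb4 with 2 related sequences had log2 fold changes of 0.01 and 0.01 in macroH2A1 shRNA, and 0.14 and 0.16 in macroH2A2 shRNA cells.

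Genes that belong to the same system but not to the named families were set beside them. The 7 subunits and partners outside the name pattern were all above 0 in both comparisons with control, with medians of 0.13 in macroH2A1 shRNA and 0.12 in macroH2A2 shRNA cells. After quantile normalization 5 and 4 of the 7 were above 0, with medians of 0.02 and 0.03. Atp5g1 among them, a gene for the c-ring subunit of ATP synthase, had 1168 and 1396 on the macroH2A1 shRNA arrays, 1600.2 and 1338 on the macroH2A2 shRNA arrays, and 357.2 and 481.5 on the control arrays. Its log2 fold changes were 1.59 ± 0.18 and 1.78 ± 0.18 (SE), with adjusted p of 0.174 and 0.150, and of 0.00282 and 0.00588 with the replicate block. The other c-ring genes, Atp5g2 and Atp5g3, had 0.21 ± 0.11 and 0.22 ± 0.12 in macroH2A1 shRNA, and 0.18 ± 0.11 and 0.12 ± 0.12 in macroH2A2 shRNA cells. Of 13 subunits encoded in mitochondrial DNA, 1 was matched on the array, mt-Nd5, with -0.02 in macroH2A1 shRNA and 0.19 in macroH2A2 shRNA cells.

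Assembly factors, which build the complexes without staying in them, were split between higher and lower values, beside a median of -0.03 over all tested probe sets in both comparisons with control. In macroH2A1 shRNA cells, 5 of 13 tested factors of complex I were above 0 (median -0.02), 6 of 12 of complexes II, III and V (median -0.00044) and 10 of 18 of complex IV (median 0.02). In macroH2A2 shRNA cells the counts were 7, 8 and 10, with medians of 0.05, 0.11 and 0.10. Quantile normalization gave medians of -0.02, -0.0037 and 0.05 in macroH2A1 shRNA, and 0.10, 0.13 and 0.07 in macroH2A2 shRNA cells. Citric acid cycle and pyruvate dehydrogenase genes were above 0 for 9 of 17 (median 0.02) in macroH2A1 shRNA and 14 of 17 (median 0.14) in macroH2A2 shRNA cells, and after quantile normalization for 8 (median -0.00071) and 13 (median 0.09). Pdha1, the catalytic E1 alpha subunit of pyruvate dehydrogenase, had 0.52 and 0.49, and Idh3g, a regulatory subunit of isocitrate dehydrogenase, had 0.44 and 0.27.

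Carriers and channels of the mitochondrial membranes were above 0 for 7 of 10 in macroH2A1 shRNA and 9 of 10 in macroH2A2 shRNA cells, both with a median of 0.10, and were led by Vdac3, an outer membrane channel, with 0.36 and 0.33. This depended on the scaling, since after quantile normalization 4 of 10 and 6 of 10 were above 0, with medians of -0.04 and 0.02. Among 14 regulators, 7 and 10 were above 0, with medians of 0.01 and 0.08, and after quantile normalization 9 and 10, with medians of 0.04 and 0.08. Ppargc1a, the coactivator, had -0.42 in macroH2A1 shRNA and -0.37 in macroH2A2 shRNA cells. The factors whose sequences were searched in the promoters had 0.02 and 0.11 (Nrf1), 0.04 and 0.11 (Gabpa), and -0.03 and 0.13 (Yy1). No gene of these lists was called in a comparison with control, except Atp5g1 with the replicate block.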

How the data were processed

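Total RNA of B16-F1 cells was measured on 6 one-colour Affymetrix arrays with 45101 probe sets, 2 for each of 3 shRNA lines, grouped by their labels. The deposited values are signal intensities, 1 per probe set on a linear scale, for which the submitters' processing notes name MAS5 as the software. For the version and the genome build, the sources used here give nothing. The authors' scaling left every array with a 2% trimmed mean of 150.0, which removes any difference in total signal between lines. The number of arrays limits the precision of every value.

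Log2(signal + 16) was computed here, so fold changes understate those of dim probe sets. The 64 control probe sets were left out, and the 27025 others with a mean signal at or above the 40th percentile (10.4) were tested in a single limma fit (limma 3.58.1, R 4.3.3, lmFit and eBayes with variance trend, 3 group means, 3 residual and 4.90 prior degrees of freedom). P-values are two-sided, and adjusted by Benjamini-Hochberg over all tested probe sets, with a threshold of 0.05. Names come from the platform annotation, for probe sets with 1 symbol. The fit was tested on simulated data with planted changes larger than those of any member and noise mostly below that of the arrays. That test does not show how the fit behaves for changes as small as those of the members.

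The differences between replicates 1 and 2 correlated between lines across probe sets with r of 0.415, 0.576 and 0.372. The replicate numbers were therefore taken to pair the arrays, a pairing that comes from the data and not from the labels, and the replicate number was a block in an alternative fit (2 residual and 9.09 prior degrees of freedom).

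Genes named are, per complex, the members with the highest and lowest signal and the 3 with the smallest p in each comparison, the 3 largest positive and negative values per comparison, members whose probe sets disagree, and the tissue isoforms. A further 7 lists hold related genes. Members, lists and rules were chosen with earlier results of these data known. Promoter windows were taken from RefSeq (GRCm38.p6) with Python 3.11.15.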

Additional observations from a re-analysis of the deposited data

Results flagged for a closer look

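Atp5j, coupling factor 6 of ATP synthase, lay on opposite sides of the control line in the macroH2A1 and macroH2A2 shRNA lines. Both macroH2A1 shRNA arrays (4053 and 4408) were above and both macroH2A2 shRNA arrays (3594 and 3678) below the control arrays (3739 and 3719). The difference, macroH2A2 shRNA minus macroH2A1 shRNA, was -0.22 ± 0.10 on the log2 scale (SE). It did not pass the test, with an adjusted p of 1 (limma) and of 0.773 with the replicate block, and it was -0.17 within replicate set 1 and -0.26 within set 2. The gap between the control arrays and the nearer macroH2A2 shRNA array is small beside the difference between the macroH2A1 and macroH2A2 shRNA lines.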

How the results depend on the processing

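No member was called in any of the 3 comparisons under the 16 or 17 alternatives that gave it a value. With the replicate block, 52, 39 and 1 probe sets were called (macroH2A1 shRNA against control, macroH2A2 shRNA against control, macroH2A2 against macroH2A1 shRNA), and 22, 16 and 1 with quantile normalization and the block. Of 306 medians recomputed, 267 moved by less than the spread between replicates, and 861 of 888 values of named members kept their sign. Many of these could not change, so the counts overstate the stability. A log2 fold change stays the same with the block, without the filter or without the variance trend. It also stays the same when an array of the line outside the comparison is left out. Quantile normalization, with or without the block, brought the medians in macroH2A1 shRNA against control cells to 0.041 over all members, 0.042 for complex I, 0.062 for complex IV and 0.069 for complex V. In macroH2A2 shRNA against control cells it gave 0.067 over all members and 0.031 for complex V, and 0.019 for complex IV in macroH2A2 against macroH2A1 shRNA cells. Centring on the median gave 0.20 over all members and 0.21, 0.15 and 0.18 for complexes I, IV and V in macroH2A2 shRNA against control cells. Probe sets ending in _at without a letter gave 0.0094 for complex III in macroH2A1 shRNA against control cells.

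Leaving out each array in turn gave these ranges. In macroH2A1 shRNA against control cells the medians ran from 0.079 to 0.21 over all members, 0.049 to 0.20 for complex I, -0.061 to 0.094 for complex II, 0.071 to 0.26 for complex III, 0.13 to 0.21 for complex IV and 0.13 to 0.27 for complex V. In macroH2A2 shRNA against control cells they ran from 0.078 to 0.19 for complex I, 0.024 to 0.19 for complex III, 0.062 to 0.15 for complex IV and 0.098 to 0.18 for complex V. In macroH2A2 against macroH2A1 shRNA cells they ran from -0.044 to 0.073 for complex I, -0.17 to 0.031 for complex III, -0.13 to -0.0049 for complex IV and -0.14 to -0.025 for complex V. Single members that took the other sign without an array were Sdhd (-0.11 to 0.26), Sdhc (-0.010 to 0.056), Ndufb6 (-0.19 to 0.072), Ndufv3 (-0.16 to 0.060) and Uqcrc2 (-0.27 to 0.030) in macroH2A1 shRNA against control cells. They were Ndufa6 (-0.16 to 0.024) and Sdha (-0.052 to 0.15) in macroH2A2 shRNA against control cells, and Sdha (-0.063 to 0.19) and Ndufb1 (-0.12 to 0.46) in macroH2A2 against macroH2A1 shRNA cells.

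Other reversals, none of a called value, were as follows. In macroH2A1 shRNA against control cells, Sdhb was -0.038 with quantile normalization, with or without the block, Ndufv3 0.0028 with median centring, Sdhd -0.16 and Ndufb2 -0.068 with the mean of all probe sets, and Cox5b -0.12 and Ndufb2 -0.65 with probe sets ending in _at alone. In macroH2A2 shRNA against control cells, Sdha was -0.0049 with quantile normalization, with or without the block, Ndufa6 0.0030 with median centring, Sdha -0.031 and Atp5c1 -0.046 with the mean of all probe sets, and Ndufb2 -0.57 and Atp5c1 -0.27 with probe sets ending in _at alone. The cause was not tested. Dim probe sets enter the last settings, while the second probe set of Sdhd had a mean signal of 425.4. With 2 arrays a line, the test had not called Macroh2a1 itself without the block, so the absence of calls does not show that members were equal.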
